A study of Mus musculus with 3 samples.

Results

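This account covers 7 complement genes, C6, C3, Cfp, C3ar1, C5ar1, Vsig4 and Fcna, in mouse liver macrophages sorted early in alcohol feeding. They were chosen by symbol from the 28692 genes counted, and all 7 were found. Their UMIs (unique molecular identifiers, 1 per captured RNA molecule) were read in barcodes with at least 1000 UMIs, at least 300 genes and at most 10% mitochondrial UMIs. That rule kept 9842 cells, of which 8609 were Kupffer-like.

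Complement is a set of plasma and membrane proteins that mark microbes and debris for uptake and can pierce membranes. Its classical, lectin and alternative pathways meet at C3, whose fragments coat particles and whose small fragment, like that of C5, signals to leukocytes through a receptor. Kupffer cells, the resident macrophages of the liver sinusoids, catch coated particles from portal blood, while most circulating complement proteins are made by hepatocytes.

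The samples came from 3 male mice aged 8 weeks, 1 per diet, and each gave 1 library. One mouse ate chow (day 0), another had the Lieber-DeCarli liquid diet containing 5% ethanol for 3 days, and the third had that diet for 10 days. The mice carried no genetic change named in the labels, and their strain was not given in the sources used here. The comparison diet was chow and not a liquid diet lacking ethanol, so ethanol and the kind of diet cannot be told apart, nor can diet be told apart from mouse, sort or library. Live cells with high F4/80 and intermediate CD11b were sorted from perfused, collagenase-digested liver and processed with the 10x Genomics 3' v2 kit. There was no replicate and therefore no test between diets. Every interval below is an exact 95% interval that covers counting error only.

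Totals were 21650747 UMIs (chow library), 21471782 (3-day library) and 16538895 (10-day library). The kept cells numbered 2767, 4061 and 3014 in that order, beside the 3000 to 5000 per sample that the series states, with medians of 4552, 3051 and 2982 UMIs each. Kupffer-like cells made up 86.6%, 88.5% and 86.9% of them. All 15 Kupffer markers, among them Clec4f and Cd5l, were detected in those cells in each library, and the members were not used to form or name the clusters. The other classes large enough to describe were T and NK-like cells (117, 90 and 153), endothelial-like cells (44, 110 and 76), an unnamed cluster with dendritic and monocyte markers (65, 58 and 48) and mixed clusters with Kupffer genes beside those of T cells, neutrophils or erythroid cells (118, 186 and 86). Between 13 and 20 cell barcodes were shared by any pair of libraries. Different clusters held most Kupffer-like cells in each library: clusters 2 and 4 in chow, clusters 0 and 3 at 3 days, and clusters 7 and 12 at 10 days.

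Levels are CPM, the share of a gene among the UMIs of all genes in the summed cells of a class, scaled in the usual way. The 3' kit counts 1 tag per molecule, so these levels were not divided by gene length. A member was called higher or lower when its ratio between libraries was at least 1.5 or at most 1/1.5 and the interval excluded 1.

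In the Kupffer-like cells 4 of the 7 genes were abundant. Vsig4, the immunoglobulin-family receptor that binds C3b and iC3b on coated particles, was the highest, at 3295 CPM in chow, 3607 CPM at 3 days and 3541 CPM at 10 days. It ranked 33, 28 and 32 among all genes with a UMI. Fcna, the secreted lectin ficolin A that can start the lectin pathway in mice, had 1981, 1903 and 2715 CPM. Cfp, which encodes properdin, the plasma protein that stabilises the convertase of the alternative pathway, had 1275, 1327 and 1157 CPM. C6, a terminal component that joins C5b in the membrane attack complex, had 747, 1003 and 1016 CPM. The receptor for C3a, C3ar1, lay lower at 221, 239 and 249 CPM. The receptor for C5a, C5ar1, had 61.9, 94.1 and 101.9 CPM. C3, the central component, was the lowest at 18.7, 29.5 and 33.3 CPM. The order of the 7 genes was the same in each library, and in each the intervals of neighbours in that order did not overlap.

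**Figure D1:**
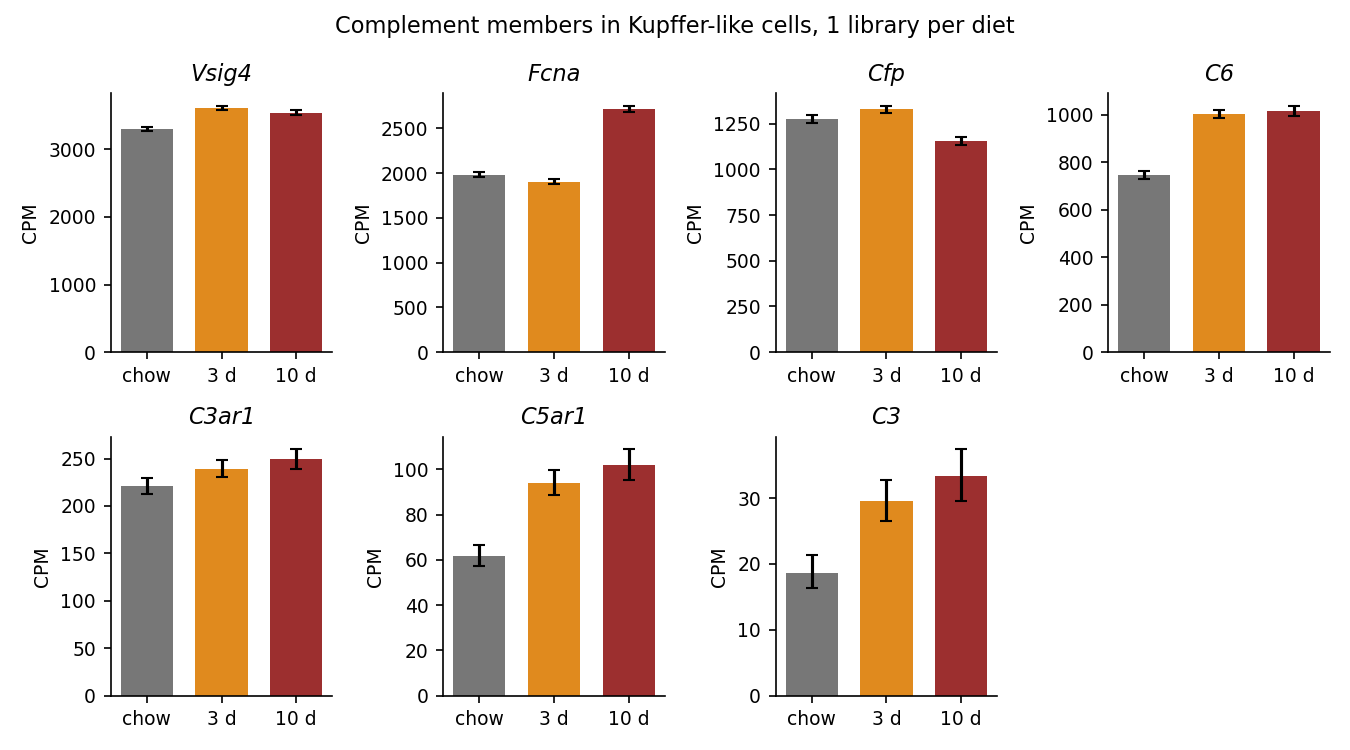
Level of each gene in Kupffer-like cells (CPM, y axis from 0, a separate scale per gene) by diet (x axis, chow, 3 days and 10 days of the ethanol diet). Bars are 1 library each with exact 95% Poisson intervals, and Fcna reaches 2715 CPM at 10 days against 1981 CPM in chow, while C5ar1 reaches 101.9 CPM against 61.9 CPM.

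Between diets, C3 and C5ar1 were called higher at 3 days than in chow, and C3 and C5ar1 were called higher at 10 days than in chow. No member was called lower in either comparison, and none was called in either direction at 10 days against 3 days. Among the 7505 genes with a mean of at least 10 CPM, which included all 7 members, 3.38% were called higher and 1.32% lower at 3 days against chow. At 10 days against chow the shares were 3.98% higher and 2.44% lower. At 10 days against 3 days they were 2.41% higher and 1.97% lower. The median log2 ratio of the members was 0.13 at 3 days over chow, against 0.04 over all genes tested. For 10 days over chow the values were 0.44 and 0.08, and for 10 over 3 days 0.06 and 0.02. The comparisons with chow share the chow library.

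**Figure D2:**
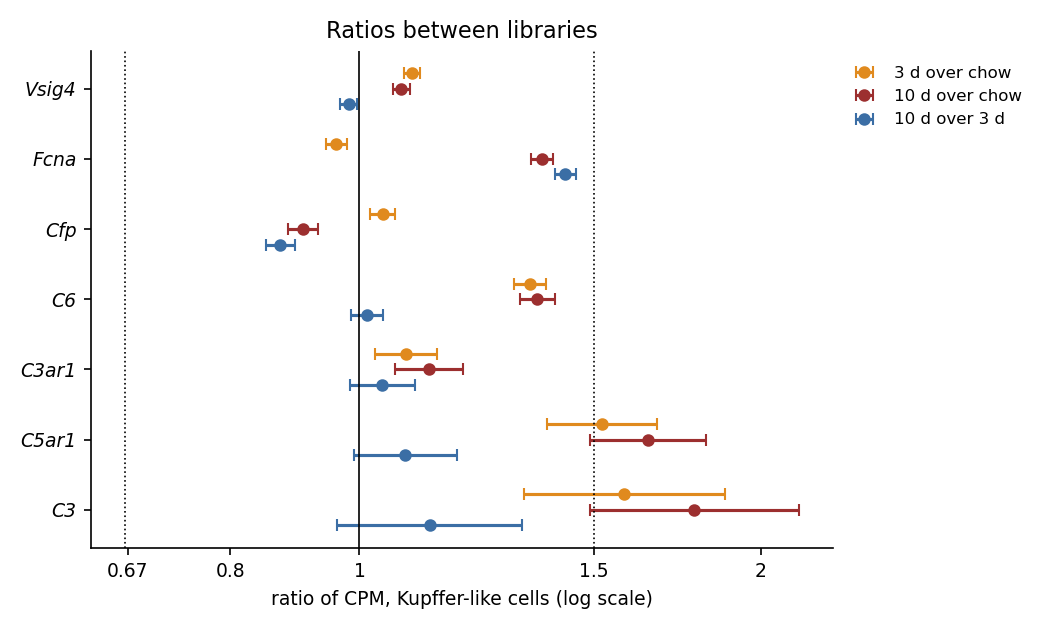
Ratio of CPM between libraries in Kupffer-like cells (x axis, log scale) for each gene (y axis). Points are ratios with exact 95% intervals, the solid line marks 1 and the dotted lines mark the call limits. C5ar1 and C3 pass 1.5 against chow at both times, C6 lies at 1.34 and 1.36, and Fcna at 0.96 and 1.37.

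The promoters of the 4 genes on which the results below turn most are shown because C6 and Vsig4 were alike across cell clusters, C5ar1 was called at both times and Fcna was the abundant gene that differed most between 10 and 3 days. The bases are from RefSeq on GRCm38.p6 and run from 250 before to 50 after the annotated start, 5′ to 3′ on the strand of the gene. Capitals mark AGGAAGT, the core bound by PU.1, a factor of myeloid cells, on either strand.
C6 (chr15:4726960-4727259, plus strand): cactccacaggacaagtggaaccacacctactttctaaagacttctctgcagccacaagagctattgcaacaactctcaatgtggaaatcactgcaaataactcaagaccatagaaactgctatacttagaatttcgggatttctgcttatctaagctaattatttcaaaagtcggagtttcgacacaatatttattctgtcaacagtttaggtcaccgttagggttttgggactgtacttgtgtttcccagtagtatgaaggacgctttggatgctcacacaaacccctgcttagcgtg
Vsig4 (chrX:96293389-96293688, minus strand): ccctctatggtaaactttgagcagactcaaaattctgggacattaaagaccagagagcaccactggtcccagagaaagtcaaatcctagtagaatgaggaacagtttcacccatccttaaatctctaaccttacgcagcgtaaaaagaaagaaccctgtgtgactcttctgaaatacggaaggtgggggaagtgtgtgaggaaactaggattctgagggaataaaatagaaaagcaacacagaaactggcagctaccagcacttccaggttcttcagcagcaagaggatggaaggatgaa
C5ar1 (chr7:16259289-16259588, minus strand): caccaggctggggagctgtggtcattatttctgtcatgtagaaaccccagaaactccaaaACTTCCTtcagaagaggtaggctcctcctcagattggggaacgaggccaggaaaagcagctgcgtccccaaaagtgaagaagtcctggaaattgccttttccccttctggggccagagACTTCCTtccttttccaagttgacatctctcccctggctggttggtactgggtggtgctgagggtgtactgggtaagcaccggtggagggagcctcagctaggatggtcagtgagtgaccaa
Fcna (chr2:25627925-25628224, minus strand): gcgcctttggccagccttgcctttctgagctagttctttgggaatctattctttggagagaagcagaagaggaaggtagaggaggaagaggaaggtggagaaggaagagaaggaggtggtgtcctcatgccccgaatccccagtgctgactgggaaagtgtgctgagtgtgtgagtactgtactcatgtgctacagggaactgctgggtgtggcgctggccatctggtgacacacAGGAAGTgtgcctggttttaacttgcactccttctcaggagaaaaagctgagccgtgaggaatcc
AGGAAGT was present in 2 of the 7 promoters (C5ar1 with 2 matches and Fcna with 1) and in 9.35% of the 32851 promoters of this length. TGANTCA, the AP-1 motif, was present in 1 of 7 (C3ar1) and in 7.81% of all. Both strands were searched, and no match overlapped one of another motif. The C6 and Vsig4 promoters held neither. These matches are descriptions of the windows and not evidence of binding.

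C6 lies at chr15:4727175-4814967 on the plus strand of GRCm38. It was detected in 92.4% of Kupffer-like cells in chow, 92.2% at 3 days and 91.8% at 10 days. With every cell thinned to 1000 UMIs, which lost no cell, the shares were 53.2% (51.2 to 55.3%), 63.6% (62.0 to 65.2%) and 65.0% (63.2 to 66.9%). Both ethanol libraries therefore lay above chow at equal depth. In T and NK-like cells, which should lack the gene, the thinned values were 8.55%, 4.44% and 7.84%. The median depth before thinning was 4585, 3035 and 3041 UMIs in Kupffer-like cells and 3538, 2614 and 2448 UMIs in T and NK-like cells. The C6 level was 1003 CPM at 3 days against 747 CPM in chow, a ratio of 1.34 (1.31 to 1.38), and 1016 CPM at 10 days against 747 CPM in chow, a ratio of 1.36 (1.32 to 1.40). Neither reached the call limit. Barcodes with 10 to 100 UMIs, too few for a cell, had similar ratios, 1.35 (1.28 to 1.41) for 3 days over chow and 1.34 (1.27 to 1.41) for 10 days over chow.

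The C6 ratio depended on how clusters were weighted. At 3 days over chow it was above 1 in 8 of 8 Kupffer-like clusters, between 1.06 and 1.59. In the comparison of 10 days with chow it was above 1 in 7 of 8, between 0.94 and 1.31, so the pooled ratio of 1.36 exceeded that of every cluster. Against 3 days the 10-day library was below 1 in 8 of 8 clusters, between 0.83 and 0.99, while the pooled ratio was 1.01 (0.99 to 1.04). Cluster 7, led by Marco and Cebpb, held 124 of the 2395 Kupffer-like cells in chow, 201 of 3594 at 3 days and 809 of 2620 at 10 days, and had C6 above the rest of its library each time, at 1.31, 1.57 and 1.34 times. With each cluster given equal weight, the ratios to chow were 1.27 for 3 days and 1.12 for 10 days, and that of 10 over 3 days was 0.89. A cluster held mostly by 1 library may be that library and not a kind of cell.

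Likeness between genes was measured as the Pearson correlation of log2(CPM + 10) over 36 sums of cells (12 clusters in 3 libraries, 6197 genes compared). The 3 genes most like C6 were Vsig4 at 0.99, Nr1h3 at 0.98 and Creg1 at 0.98. The 3 most like Vsig4 were Creg1 at 0.99, Grn at 0.99 and Lrp1 at 0.99. These sums include cells that are not Kupffer-like, and sums of 1 library share its depth.

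Vsig4 lies at chrX:96247203-96293438 on the minus strand. It had at least 1 UMI in 99.7% (chow), 99.8% (3 days) and 99.7% (10 days) of Kupffer-like cells. After thinning the shares were 95.1%, 96.3% and 96.1%. Among T and NK-like cells it was seen in 12.8%, 16.7% and 18.3% after thinning. Its ratios to chow were 1.09 (1.08 to 1.11) for 3 days and 1.07 (1.06 to 1.09) for 10 days. In barcodes with 10 to 100 UMIs the Vsig4 ratios to chow lay below 1, at 0.92 (0.89 to 0.94) and 0.76 (0.73 to 0.78). Within clusters the ratio to chow was above 1 in 4 of 8 at 3 days and in 2 of 8 at 10 days, and at 10 days over 3 days it was below 1 in 8 of 8. Among clusters, Vsig4 and C6 shared their order at several points. In cluster 0, led by Vcam1, Vsig4 stood at 1.36 (chow), 1.28 (3 days) and 1.11 (10 days) times the rest of the Kupffer-like cells, and C6 at 1.41, 1.35 and 1.04. In cluster 2, led by Cxcl13, Vsig4 stood at 0.84, 0.80 and 0.76 times the rest and C6 at 0.73, 0.78 and 0.73. Among the Kupffer-like clusters, cluster 2 also had the most UMIs per cell, with a median of 6108, and cluster 7 the fewest, with 1825, and the part of depth in these differences was not tested. Across single cells thinned to 1000 UMIs, the correlation between C6 and Vsig4 was weak, at 0.08 in chow and 0.10 at 10 days, and no pair of members went above 0.10 in any library.

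Fcna lies at chr2:25624666-25628030 on the minus strand, inside the span of the antisense gene Fcnaos (chr2:25607892-25631761). Fcnaos was counted as a gene of its own with 10, 15 and 10 UMIs in the Kupffer-like cells of chow, 3 days and 10 days, against 22786, 22584 and 23394 for Fcna. Whether the counting used the strand was not given in the sources used here. Fcna had 2715 CPM at 10 days against 1903 CPM at 3 days, a ratio of 1.43 (1.40 to 1.45), and against 1981 CPM in chow, a ratio of 1.37 (1.35 to 1.40). At 3 days over chow the ratio was 0.96 (0.94 to 0.98). None reached the call limit. The ratio was above 1 in 8 of 8 clusters at 10 days over 3 days (1.18 to 1.57) and in 8 of 8 at 10 days over chow (1.09 to 1.51), and in 2 of 8 at 3 days over chow. The thinned share of cells with a UMI was 81.0% (79.3 to 82.5%) in chow, 80.5% (79.1 to 81.8%) at 3 days and 88.7% (87.4 to 89.8%) at 10 days. The 10-day library thus lay above both others in level, in share and in each cluster.

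Fcna was also highest in the 10-day library outside Kupffer-like cells. T and NK-like cells had 206 CPM at 10 days against 93.2 CPM in chow, a ratio of 2.21 (1.51 to 3.28). The cluster with dendritic and monocyte markers had 872 CPM at 10 days against 525 CPM in chow, a ratio of 1.66 (1.39 to 1.99). Barcodes with 10 to 100 UMIs had 1759 CPM at 10 days against 1621 CPM in chow, a ratio of 1.09 (1.05 to 1.12). The part of free RNA in the other classes was not tested, nor that of the kinds of cell each class held. Within Kupffer-like cells Fcna was highest in cluster 12, led by Ltc4s and Klf4, at 1.22, 1.199 and 1.19 times the rest in the 3 libraries. The genes most like Fcna over the 36 sums were Cd5l at 0.97, Pcolce2 at 0.97 and Clec4f at 0.97.

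Cfp lies at chrX:20925454-20931555 on the minus strand. It had 1157 CPM at 10 days against 1327 CPM at 3 days, a ratio of 0.87 (0.85 to 0.89), and was below 1 in 8 of 8 clusters in that comparison. Against 1275 CPM in chow the ratios were 1.04 (1.02 to 1.06) at 3 days and 0.91 (0.88 to 0.93) at 10 days. None reached the call limit. The thinned shares were 67.8% in chow, 69.9% at 3 days and 66.2% at 10 days. Cfp was lower than the rest in cluster 7, at 0.65 (chow), 0.77 (3 days) and 0.79 (10 days) times, where C6 and Vsig4 were higher than the rest. Its most similar genes were Clec4f at 0.99, Csf1r at 0.99 and Axl at 0.98.

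The anaphylatoxin receptors differed from each other. C3ar1 lies at chr6:122847138-122856161 on the minus strand, and its ratios to chow were 1.08 (1.03 to 1.14) for 3 days and 1.13 (1.06 to 1.195) for 10 days. The ratio of 10 over 3 days was 1.04 (0.98 to 1.10). It was above 1 in 5 of 8 clusters in each comparison. Its thinned shares were 19.2%, 20.3% and 22.4%. In T and NK-like cells 0 of 117 cells in chow had a UMI after thinning, for which 3 counts put the limit on cells with a UMI at that depth at 2.56%, and 1 of 90 at 3 days and 1 of 153 at 10 days had one. Before thinning the numbers were 9, 3 and 4 cells. The genes most like C3ar1 were Ctsh at 0.98, Lilra5 at 0.97 and AB124611 at 0.97.

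C5ar1 lies at chr7:16246743-16259540 on the minus strand. It had 61.9 CPM (57.4 to 66.6) in chow, 94.1 CPM (88.7 to 99.8) at 3 days and 101.9 CPM (95.3 to 109) at 10 days. The ratios to chow were 1.52 (1.38 to 1.67) at 3 days and 1.65 (1.49 to 1.82) at 10 days, and both lower bounds lay under 1.5. The ratio of 10 over 3 days was 1.08 (0.99 to 1.18). In barcodes with 10 to 100 UMIs the C5ar1 ratios to chow were 1.27 (1.06 to 1.51) at 3 days and 1.31 (1.09 to 1.59) at 10 days. The thinned share of Kupffer-like cells with a UMI was 5.30% (4.44 to 6.28%) in chow, 9.32% (8.39 to 10.3%) at 3 days and 8.59% (7.54 to 9.73%) at 10 days. Without thinning the shares were 22.8%, 23.8% and 24.5%, with the deeper chow cells given above. Among T and NK-like cells the thinned values were 0.855%, 1.11% and 0 of 153 cells, for which 3 counts put the limit on cells with a UMI at that depth at 1.96%. Before thinning 3, 1 and 1 of these cells had a C5ar1 UMI. The C5ar1 UMIs were spread over many cells, with 3.09%, 2.33% and 2.85% of them in the 5 cells that held the most. Without those cells the ratios were 1.53 and 1.65.

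The difference in C5ar1 was present in most clusters, 7 of 8 in each comparison with chow, with ratios between 0.86 and 2.57 at 3 days and between 0.97 and 2.01 at 10 days. The exception was the same in both, cluster 1, which is led by Cxcl10, Cxcl9, Cxcl2 and other cytokine genes of an activated state. Its level of C5ar1 was 173 CPM in chow, 150 CPM at 3 days and 168 CPM at 10 days, above every other Kupffer-like cluster in each library. That was 2.89 (2.02 to 4.03), 1.65 (1.34 to 2.02) and 1.68 (1.22 to 2.27) times the rest, in 46, 195 and 68 cells. With equal weight per cluster the C5ar1 ratios were 1.41 at 3 days and 1.48 at 10 days, under the call limit. At 3 days the ratio was also under the limit with median-of-ratios scaling (1.48), with a total that left out the most abundant genes (1.49), with at least 2000 UMIs per cell (1.47), with at most 5% mitochondrial UMIs (1.44) and with 10 CPM added to each side (1.45). The genes most like C5ar1 were Pou2f2 at 0.93, Pirb at 0.92 and Mcl1 at 0.92.

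C3 lies at chr17:57203970-57228136 on the minus strand. It had 18.7 CPM (16.3 to 21.4) in chow, 29.5 CPM (26.5 to 32.8) at 3 days and 33.3 CPM (29.6 to 37.4) at 10 days. The ratios to chow were 1.58 (1.33 to 1.88) at 3 days and 1.78 (1.49 to 2.14) at 10 days. These levels rested on few UMIs, 215 (chow), 350 (3 days) and 287 (10 days). Within clusters the ratio to chow was above 1 in 8 of 8 at 3 days (1.15 to 2.92) and in 7 of 8 at 10 days (0.87 to 4.78). At 10 days C3 was highest in cluster 2, at 87.1 CPM or 3.52 (2.74 to 4.50) times the rest. Cluster 4 followed at 85.6 CPM or 2.82 (1.97 to 3.95) times the rest. The level of cluster 2 included 1 barcode with 64 of the 287 UMIs, described below. The highest ratio to chow, 4.78, was that of cluster 2. Neither value was computed without this barcode, so which cluster was highest may depend on it. The thinned shares were 2.13% (1.59 to 2.79%) in chow, 2.81% (2.30 to 3.40%) at 3 days and 2.21% (1.69 to 2.85%) at 10 days, and the 3 intervals overlapped. In T and NK-like cells they were 1.71% (0.21 to 6.04%), 1.11% (0.03 to 6.04%) and 1.31% (0.16 to 4.64%) in the same order, on 2, 1 and 2 cells with a UMI. The values at 3 and 10 days lay below the intervals of the Kupffer-like cells, but the intervals of the 2 classes overlapped in each library. With so few T and NK-like cells, the share of C3-positive cells could not be told from that in cells thought to lack it at this depth.

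At 10 days 1 cell held 64 of the 287 C3 UMIs (22.3%), and the 5 cells with the most held 103 (35.9%). In chow the highest cell had 10 UMIs and at 3 days 5. The cell with 64 UMIs belonged to cluster 2 and also held 110 UMIs of Slpi, 61 of Igfbp5, 67 of Rarres2, 30 of Dcn and 12 of Serping1, beside 46 of Cd5l and 31 of Clec4f, with none of Alb. The highest C3 cells in chow and at 3 days had 0 UMIs of Slpi, Igfbp5, Rarres2, Dcn and Serping1. The stellate and fibroblast markers summed to 0 (chow), 0 (3 days) and 46 (10 days) UMIs in the 5 highest C3 cells. The barcode with 64 C3 UMIs may hold more than 1 cell, which was not tested: the doublet caller marked 0 cells in each library. Of the 5 highest C3 cells at 10 days, 0 were among the 4% of cells with the highest doublet scores. These genes of the single cell were named after its values were seen. Without the 5 highest cells of each library the C3 level was 16.6 CPM in chow, 27.7 CPM at 3 days and 21.4 CPM at 10 days. The ratio to chow was then 1.67 for 3 days and 1.29 for 10 days, the second no longer called. The ratio of 10 over 3 days was 0.77, on the other side of 1 from the 1.13 with all cells. Among Kupffer-like cells thinned to 1000 UMIs, the variance over the mean of C3 was 1.02 in chow, 1.01 at 3 days and 1.51 at 10 days. With at most 5% mitochondrial UMIs per cell the C3 ratio at 10 days over chow was 4.86, with Leiden resolution 1.2 it was 1.28 and with equal weight per cell 1.42, both no longer called. Resolution 1.2 also set apart 34 barcodes (3 in chow, 21 at 3 days and 10 at 10 days) as a mixed cluster outside the Kupffer-like cells. Igfbp5, Slpi, Rarres2 and Dcn were among its leading genes, and its Kupffer markers were at 0.89 of their level in all cells. Whether the barcode with 64 C3 UMIs lay in it was not tested.

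Barcodes with 10 to 100 UMIs held C3 at a higher level at 3 days. They had 115.5 CPM of C3 at 3 days, against 28.8 CPM in chow, a ratio of 4.01 (3.30 to 4.91), and 34.8 CPM at 10 days against 28.8 CPM in chow, a ratio of 1.21 (0.93 to 1.57). The 11 hepatocyte markers summed to 2414 CPM in these barcodes in chow, 7517 CPM at 3 days and 2884 CPM at 10 days. The 33 hepatocyte-like cells of the libraries together had 198 CPM of C3 (115 to 317). In Kupffer-like cells the hepatocyte markers summed to 1162 CPM in chow, 1282 CPM at 3 days and 957 CPM at 10 days. Most of each sum was 1 gene, Trf, at 747, 772 and 648 CPM, against 724, 822 and 483 CPM in the barcodes with 10 to 100 UMIs. The other markers did not all move 1 way in Kupffer-like cells. At 3 days Apoa2 had 137 CPM against 63.2 CPM in chow, and Alb 108 CPM against 127 CPM. The part of free RNA in the C3 difference was not tested beyond the subtraction that follows. With 5% of the UMIs of each library taken as free RNA and subtracted, the C3 ratio was 1.38 at 3 days, no longer called, and 1.83 at 10 days. With all kept cells the ratio at 3 days was 1.44, and with 10 CPM added to each side it was 1.38, both no longer called. The genes most like C3 were Slc16a10 at 0.72, Fgr at 0.66 and C5ar1 at 0.65, lower values than for the other members.

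Across classes, 6 of the 7 members, all but C3, were at least 4-fold higher in Kupffer-like than in T and NK-like cells in each library with an interval above 1, a pattern that 11.3% of the 7505 genes shared. Vsig4 was 18.6-fold higher in chow, 20.2-fold at 3 days and 18.5-fold at 10 days. For C5ar1 the T and NK-like cells held between 1 and 3 UMIs, and the ratios were 9.30 (3.17 to 45.2) in chow, 26.4 (4.73 to 1043) at 3 days and 41.6 (7.45 to 1647) at 10 days. C3 was 1.40 times as high (0.63 to 3.87) in chow, 4.13 (1.14 to 34.3) at 3 days and 6.81 (1.87 to 56.5) at 10 days, on 6, 2 and 2 UMIs in the T and NK-like cells.

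In other classes the members were set beside the Kupffer markers. In T and NK-like cells the 15 Kupffer markers together were at 7.71% (chow), 7.18% (3 days) and 7.25% (10 days) of their level in Kupffer-like cells. The members other than C3 lay between 4.70% (Fcna) and 10.8% (C5ar1) in chow, between 3.79% (C5ar1) and 8.34% (Cfp) at 3 days and between 2.40% (C5ar1) and 7.57% (Fcna) at 10 days. C3 lay apart, at 71.2%, 24.2% and 14.7%, on the few UMIs given above. In endothelial-like cells the markers were at 34.4%, 33.4% and 29.7%, and 6 members, all but C3, lay between 9.11% (C3ar1) and 27.4% (Fcna) in chow, between 26.7% (Vsig4) and 35.2% (Fcna) at 3 days and between 13.4% (C5ar1) and 30.5% (Fcna) at 10 days. C3 was there at 35.9%, 23.2% and 27.3%. The cluster with dendritic and monocyte markers differed from this for the receptors and for Cfp. Its Kupffer markers were at 30.01%, 33.2% and 41.5%, while C3ar1 was at 41.4%, 57.9% and 52.4% and C5ar1 at 69.4%, 45.3% and 108%. Cfp was at 31.5%, 40.6% and 51.8%, close to the markers in chow. Its ratios to chow in this cluster were 1.34 (1.105 to 1.63) at 3 days and 1.49 (1.205 to 1.85) at 10 days. There C5ar1 had 110 CPM (27 UMIs) at 10 days against 43.0 CPM (24 UMIs) in chow, a ratio of 2.56 (1.42 to 4.64), in 48 and 65 cells. C3 in this cluster was at 28.7 CPM in chow, 18.7 CPM at 3 days and 20.4 CPM at 10 days, and its ratio to Kupffer-like cells could not be told from 1 in any library at this depth. The kinds of cell in this cluster may differ between libraries. At Leiden resolution 1.2, a cluster with Cd209a and Xcr1 among its leading genes held 63 cells in chow, 45 at 3 days and 29 at 10 days. Another, led by Cx3cr1 and Ccr2, held 3, 13 and 19. Whether these were the same barcodes, and the part of such a shift in the ratios to chow, was not tested.

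**Figure D3:**
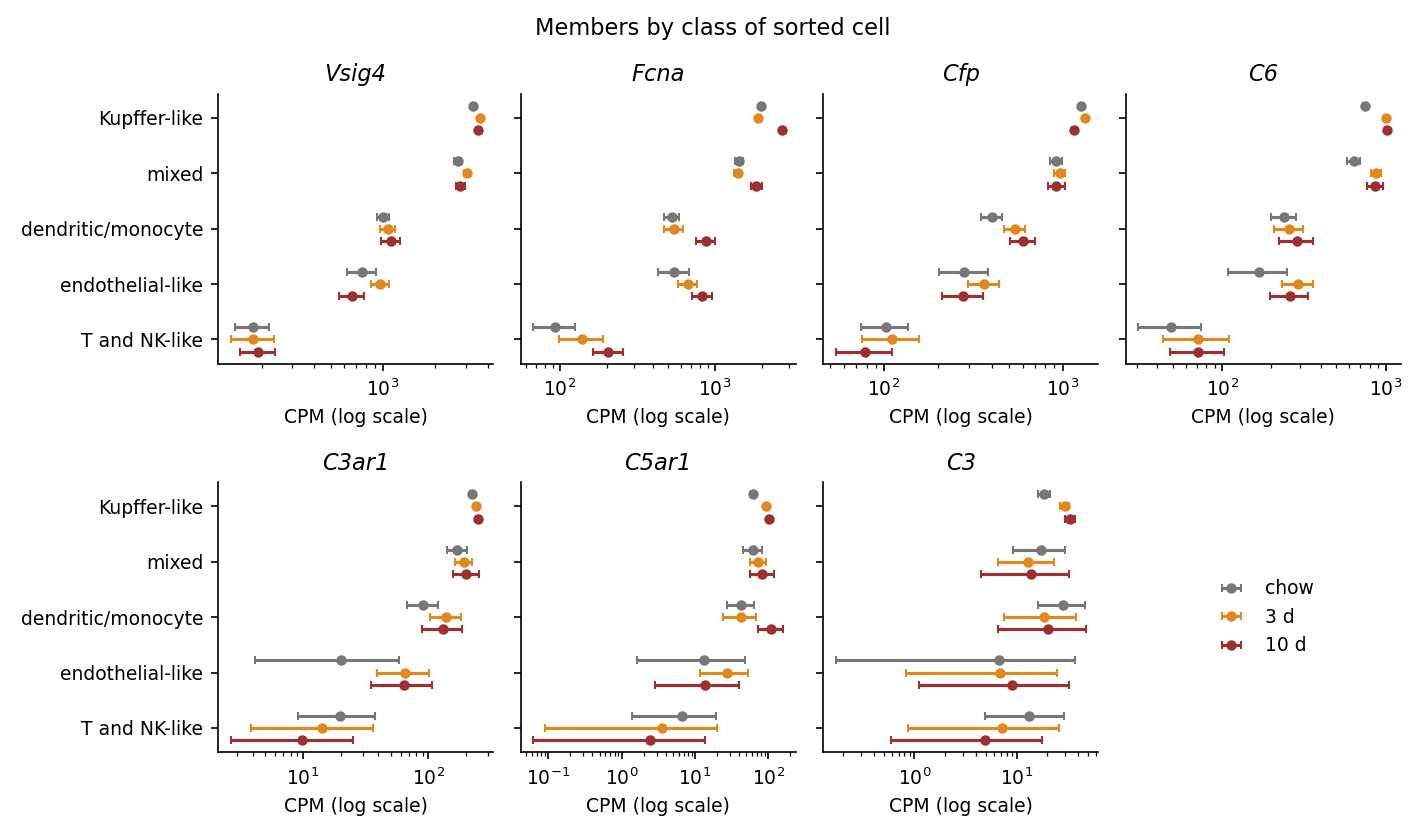
Level of each gene (x axis, CPM, log scale) in 5 classes of sorted cell (y axis), with 1 point per library and its exact 95% Poisson interval. Kupffer-like cells lie farthest right for Vsig4, Fcna, Cfp, C6 and C3ar1, and T and NK-like cells lie lowest for Vsig4 at 177 to 191 CPM.

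The proliferating cluster 6, led by Top2a and Mki67, had lower levels of most members than the other Kupffer-like cells. Relative to the rest of its library, Vsig4 was at 0.74 (chow), 0.72 (3 days) and 0.69 (10 days) times, Fcna at 0.76, 0.74 and 0.69, Cfp at 0.71, 0.65 and 0.72, C6 at 0.81, 0.75 and 0.66, and C3ar1 at 0.65, 0.61 and 0.53. All 15 of these intervals lay below 1. C5ar1 was at 0.48 (0.23 to 0.88), 0.81 (0.54 to 1.18) and 0.48 (0.26 to 0.80). C3 was at 1.30, 0.93 and 0.95, with intervals that included 1. The Kupffer markers were at 0.86 of their level in all cells in this cluster, the lowest of the 8. Low C6 and low Cfp were not particular to cluster 6. In the same order of libraries, C6 was at 0.73, 0.78 and 0.73 times the rest in cluster 2, and Cfp at 0.65, 0.77 and 0.79 in cluster 7.

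**Figure D4:**
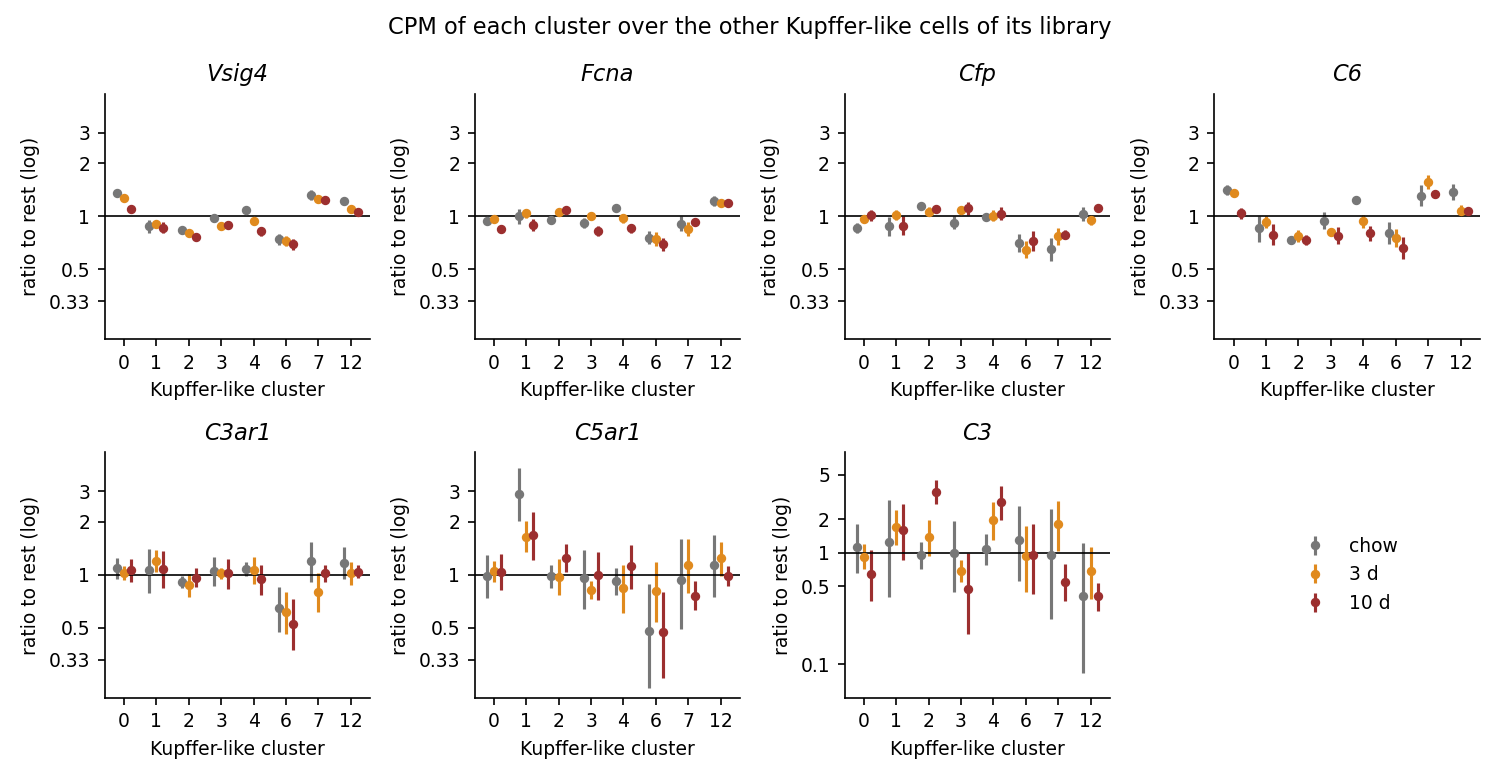
CPM of each gene in a Kupffer-like cluster divided by that in the other Kupffer-like cells of the same library (y axis, log scale, with exact 95% intervals), for 8 clusters (x axis) and 3 libraries. Cluster 6 lies below 1 for Vsig4, Fcna, Cfp, C6 and C3ar1 in each library, and cluster 1 is highest for C5ar1 at 2.89, 1.65 and 1.68.

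Cells carried several members at once. After thinning to 1000 UMIs the median Kupffer-like cell had a UMI of 3 members (chow), 3 members (3 days) and 4 members (10 days). The share with at least 4 was 40.3%, 49.0% and 51.1%, and the share with none was 0.17%, 0.11% and 0.23%. The variance over the mean of C6 was 1.10, 1.19 and 1.14, and that of Fcna 1.24, 1.25 and 1.43, beside medians between 1.08 and 1.24 over genes of a similar mean. For C5ar1 it was 1.035, 1.015 and 1.192, beside medians of 1.018, 1.02 and 1.017, so only the 10-day value stood well above its median. Outside C3 the UMIs were spread over many cells: the 5 cells with the most held at most 3.09% of any other member's UMIs in a library.

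**Figure D5:**
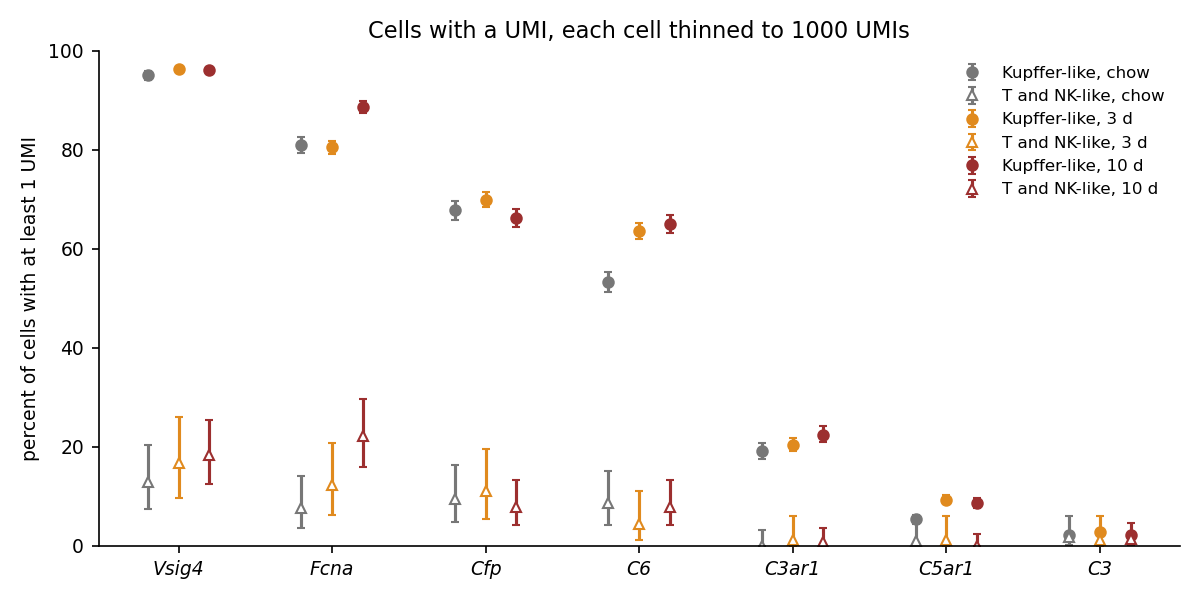
Percent of cells with at least 1 UMI after each cell was thinned to 1000 UMIs (y axis) for each gene (x axis), with exact 95% intervals. Filled circles are Kupffer-like cells and open triangles T and NK-like cells, and the circles of C6 lie at 63.6% and 65.0% in the ethanol libraries against 53.2% in chow, while for C3 circles and triangles overlap.

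Of 49 other complement genes listed from general knowledge, 47 were found by a unique symbol and 17 reached a mean of 10 CPM in Kupffer-like cells. C4a and Itgam were not analysed here. At 3 days against chow 1 of the 17 was called higher and 1 lower. At 10 days against chow 1 was higher and 2 lower, and at 10 days against 3 days 2 were higher and 2 lower. Their median log2 ratios were -0.19, -0.01 and 0.03, against 0.04, 0.08 and 0.02 over all genes tested.

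In the classical pathway 6 of 8 genes found were measured. C1qb, a chain of C1q, which recognises antibody complexes, had 2227 CPM at 10 days against 4034 CPM in chow, a ratio of 0.55 (0.54 to 0.56), and 2851 CPM at 3 days against 4034 CPM in chow, a ratio of 0.71 (0.70 to 0.72). C1qa was at 4402 CPM at 10 days against 5859 CPM in chow, and C1qc at 4955 CPM against 5535 CPM, neither past the limit. In the alternative pathway 2 of 6 were measured. Cfb, the protease precursor that binds C3b, had 14.7 CPM at 10 days against 31.4 CPM in chow, a ratio of 0.47 (0.38 to 0.58), and against 23.2 CPM at 3 days a ratio of 0.64 (0.51 to 0.79). No terminal component other than C6 reached 10 CPM.

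Among receptors 5 of 8 were measured, beside 1 of 8 in the lectin pathway and 3 of 11 regulators. C5ar2, the second receptor for C5a, had 46.8 CPM at 10 days against 28.6 CPM at 3 days, a ratio of 1.64 (1.41 to 1.90). Against 37.0 CPM in chow it was at 0.77 (0.67 to 0.89) at 3 days and 1.26 (1.10 to 1.45) at 10 days, so C5ar1 and C5ar2 lay on different sides of 1 at 3 days. The most abundant were Lrp1 at 685 CPM at 10 days against 645 CPM in chow and Calr at 600 CPM against 536 CPM. Colec12, a scavenger receptor with a collectin domain listed with the lectin pathway, had 15 CPM at 3 days against 7.82 CPM in chow, a ratio of 1.92 (1.48 to 2.50), and 7.78 CPM at 10 days against 15 CPM at 3 days, a ratio of 0.52 (0.39 to 0.69). Cd55, which speeds the decay of convertases on cells, had 26.5 CPM at 3 days against 40.5 CPM in chow, a ratio of 0.65 (0.56 to 0.76). Cr1l, another membrane regulator, was at 46.9 CPM at 10 days against 52.7 CPM in chow. Clu, the secreted regulator clusterin, was at 17.8 CPM at 10 days against 6.0 CPM in chow, a ratio of 2.96 (2.21 to 3.99), and against 7.58 CPM at 3 days a ratio of 2.34 (1.79 to 3.07). Its UMIs were few and concentrated, and 1 cell held 106 of its 153 UMIs at 10 days and 36 of 90 at 3 days. Without the 5 cells with the most, Clu was at 4.97 CPM in chow, 4.14 CPM at 3 days and 4.31 CPM at 10 days.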

How the data were processed

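Single-cell RNA was measured in 3 libraries, 1 mouse per diet. The deposited matrices hold raw UMI counts per gene and barcode. Per the submitters' processing notes, the tool was Cell Ranger 2.2.0 and the genome GRCm38 or mm10, with no role stated. Nothing used here states the annotation, strand setting or cell calling.

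Cells had at least 1000 UMIs, at least 300 genes and at most 10% mitochondrial UMIs. Scrublet marked 0 cells in each library and so had not worked, and no doublets were removed. Clustering used scanpy 1.11.5 on 2000 variable genes, with the members and the other complement genes left out, 30 principal components, 15 neighbours and Leiden resolution 0.6, with no batch correction. A cluster was named from at least 3 fixed markers of a type among its 25 leading genes and was Kupffer-like when its Kupffer marker level reached 0.5 of the level over all cells and no other type was named. These naming limits were set after clusters had been seen.

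Counts were summed per class and library and scaled by their total as CPM. For log2 ratios 1 CPM was added to each side. Ratios have exact conditional binomial intervals, levels exact Poisson intervals and shares exact Clopper-Pearson intervals (scipy 1.17.1). They cover counting error only, and no test between diets was possible. Where a share was 0, 3 counts set the upper limit. Thinning drew 1000 UMIs per cell at random. The ratio script was checked on simulated counts.

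The members and lists were chosen with earlier results of these data known. Named genes were the 7 members, the other complement genes called in any comparison or among the 2 most abundant of their group, and the 3 genes most like each member. One other complement gene that this rule names is not reported here. Similarity used log2(CPM + 10) over cluster sums of at least 30 cells, with genes of at least 50 CPM in 1 sum. Coordinates are from GENCODE vM21, in which 28416 of 28692 gene IDs were found. Alternatives were other cell filters, scalings, weights, cluster resolution, free RNA subtraction, minimum levels and added CPM. The removal of the 5 highest cells was added after the data were seen.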

Additional observations from a re-analysis of the deposited data

Results flagged for a closer look

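C3 in barcodes with 10 to 100 UMIs stood at 115.5 CPM at 3 days, against 28.8 CPM in chow. These barcodes lie outside the cells used for the comparisons, and the level exceeded that of the chow library by 4.01 times (3.30 to 4.91). Of the 7 genes, C3 was the only one past 1.5-fold against chow in these barcodes at either time. The 11 hepatocyte markers summed to 7517 CPM there at 3 days, against 2414 CPM in chow. They differed among themselves: albumin RNA (Alb) was at 962 CPM against 455 CPM in chow, Apoa2 at 2022 CPM against 273 CPM and Trf at 822 CPM against 724 CPM.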

How the results depend on the processing

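No paired analysis was possible because each diet had 1 library. Of the 12 alternatives with a value for each member's ratio, C5ar1 stayed called in 11 at 10 days over chow (ratios 1.48 to 1.73) and in 6 at 3 days (1.41 to 1.59). C3 stayed called in 9 at 3 days (1.38 to 2.06) and in 9 at 10 days (1.28 to 4.86). At 10 days the C3 call was lost without the 5 highest cells (1.29), with equal weight per cell (1.42) and with the higher Leiden resolution (1.28). Leaving out the highest cells removed the barcode with 64 of the 287 C3 UMIs. Alternatives that changed only the scaling kept that barcode, so the count of 9 does not show that the call held without it. At 10 days over 3 days C3 changed sign in 3 of the 12 (0.77 to 2.35) and was called in 1. No other member was called under any of these alternatives. For the equal-weight and free RNA settings the interval was taken at the scaled level.

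The number of members called at 3 days over chow, 2, became 1 with at most 5% mitochondrial UMIs, at least 2000 UMIs, all kept cells, median-of-ratios size factors, a total without the most abundant genes, 5% free RNA subtracted and equal weight per cluster, and 0 with 10 CPM added to each side. For 10 days over chow 2 became 1 with Leiden resolution 1.2, equal weight per cell, equal weight per cluster and without the 5 highest cells. Between 10 and 3 days 0 became 1 with at most 5% mitochondrial UMIs.

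The number of other complement genes called at 3 days over chow, 2, became 1 with at most 5% mitochondrial UMIs and with all kept cells, and 0 with at least 50 CPM. For 10 days over chow 3 became 6 with no minimum level and 1 with at least 50 CPM. Between 10 and 3 days 4 became 2 with at most 5% mitochondrial UMIs and with equal weight per cluster, 8 with no minimum and 0 with at least 50 CPM.

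Over all genes, size factors gave 191 higher and 325 lower at 10 days over chow in place of 299 and 183, and moved all log2 ratios by -0.09, and a total without the most abundant genes gave 288 lower. Equal weight per cluster gave 214 lower in place of 99 at 3 days over chow and 151 higher in place of 299 at 10 days over chow. At most 5% mitochondrial UMIs gave 271 lower in place of 148 at 10 days over 3 days. With no minimum level the counts were 571 higher and 409 lower, 651 and 530, and 528 and 448 in the 3 comparisons.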
